A study of Mus musculus with 12 samples.

Results

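Messenger RNA of 10 genes of the urea cycle and of periportal nitrogen handling was followed in mouse liver, chosen by symbol from the 25540 symbols of the deposited count table. They are Nags, Cps1, Otc, Slc25a15, Ass1, Asl and Arg1 of the urea cycle, and Gls2, Sds and Hal, which release nitrogen from amino acids. All 10 were present in the table and all 10 passed the filter on low counts that kept 15720 genes. Liver turns toxic ammonia into urea through this cycle, which starts in the mitochondria of hepatocytes and ends in their cytosol. The enzymes are strongest in periportal hepatocytes, near the incoming portal blood, while hepatocytes around the central vein capture leftover ammonia as glutamine. Transcription of the cycle is known to respond to glucagon, glucocorticoids and C/EBP factors.

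The data were 12 liver libraries from BALB/c mice by label, 3 in each of 4 groups named for the load of an injected preparation called iExos. The title of the series places the work in exosome delivery against STAT3, a transcription factor of cytokine signalling, in liver fibrosis. All 4 groups received iExos. The controls were loaded with siCntrl or mASO Scrbl, and the other groups with siSTAT3 or mASO STAT3. The prefix si usually stands for small interfering RNA and ASO for antisense oligonucleotide. The labels give no age, dose, time or liver injury for any group, and uninjected livers were not analysed here. They do not tie the 3 libraries of a group to different mice, and the spread that the p-values weigh may thus be technical. The siRNA arm below is siSTAT3 against siCntrl, and the antisense arm is mASO STAT3 against mASO Scrbl.

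Depth ran from 39844158 to 67791159 counts per library. Stat3 mRNA lay between 88.2 and 122 CPM (counts scaled to a common library size) over the 12 libraries, and its log2 fold changes were −0.03 ± 0.14 (siRNA arm) and 0.05 ± 0.14 (antisense arm; edgeR, estimate ± SE). These Stat3 values use TMM scaling between libraries. On the scale of library totals, Stat3 was lower in both arms. On that scale the median log2 fold change of all tested genes was also lower, at −0.53 (siRNA arm) and −0.63 (antisense arm). Stat3 therefore does not check the labels, and every direction given here rests on the labels of the libraries. Hepatocyte markers were present in every library, with no listed marker at 0 counts. Library 2 of siCntrl and library 2 of mASO Scrbl stood apart within their groups. Each held the lowest level of 8 of the 10 genes in its group, and their summed levels of the 10 hepatocyte markers, 65226 and 67499.7 CPM, were the lowest of all 12 libraries. Library 1 of mASO Scrbl held the highest level in its group for all 10 genes. Counts of genes called with and without these libraries are given below.

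In the libraries labelled STAT3, most of the pathway stood higher than in the controls. The 10 genes and the lists below were chosen with earlier results of these data known. Their counts beside the shares of all tested genes are thus a description and not a test. In the siRNA arm 8 of the 10 genes rose and 0 fell at an edgeR adjusted p under 0.05, where 45.7% of all tested genes were called, 22.4% higher and 23.4% lower. In the antisense arm 9 rose and 0 fell, where 43.8% of all tested genes were called, 21.3% higher and 22.5% lower. Levels of the compared groups did not overlap for 8 genes in the siRNA arm and 10 in the antisense arm, all higher. Over all tested genes 25.5% and 27.2% were free of overlap and higher, and 27.5% and 29.6% free of overlap and lower. Argininosuccinate lyase (Asl), glutaminase 2 (Gls2), ornithine transcarbamylase (Otc) and argininosuccinate synthase (Ass1) made up the 4 highest fold changes in each arm. Arginase 1 (Arg1), the last enzyme of the cycle, passed in neither arm. The median log2 fold change of the 10 genes was 1.47 in the siRNA arm and 1.56 in the antisense arm, beside −0.04 and −0.05 over all tested genes. With both libraries numbered 2 of the controls left out, 7 and 8 of the 10 genes were called higher, a choice made after the data were seen. In that fit 2892 and 2865 of 15866 tested genes were called higher, and 3047 and 2994 lower.

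**Figure D1:**
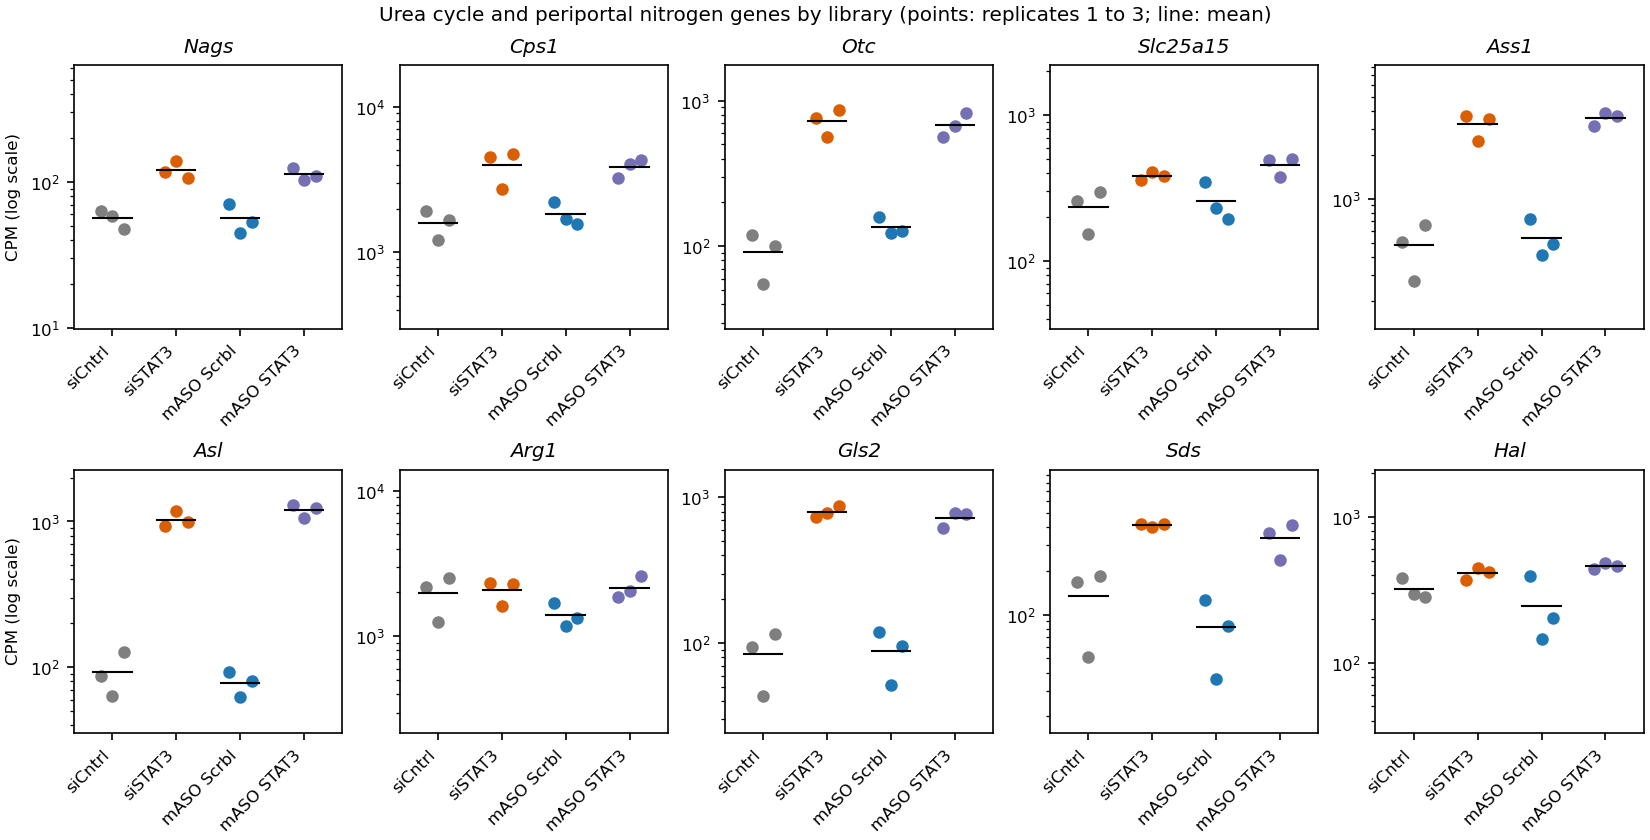
Level of each of the 10 genes in CPM on a log axis for the 12 libraries, with points for replicates 1 to 3 from left to right and a line for the group mean; every panel spans the same fold range. Asl, Gls2, Otc and Ass1 sit far apart between the controls and the groups labelled STAT3, and the Arg1 points of the siRNA arm overlap.

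Scaling between libraries bears on these levels. CPM here use TMM scaling. Its factors ran from 1.11 to 1.27 for control libraries, and libraries labelled STAT3 had 0.804 to 0.901. Scaling by library totals alone moved the median log2 fold change of all tested genes to −0.53 in the siRNA arm and −0.63 in the antisense arm. The share of called genes that were higher fell from 48.9% to 18.6% in the siRNA arm and from 48.6% to 16.1% in the antisense arm. Of the 10 genes, 7 and 6 were still called higher on that scale and 0 lower. Of all 15720 tested genes, 1655 (siRNA arm) and 1525 (antisense arm) were called higher on that scale. Calls lower numbered 7266 and 7939. The 10 genes took 0.579 ± 0.126% of all counts in siCntrl and 1.08 ± 0.19% in siSTAT3, and 0.590 ± 0.126% in mASO Scrbl and 1.14 ± 0.13% in mASO STAT3 (SD, n = 3), a share that is on the scale of library totals.

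**Figure D2:**
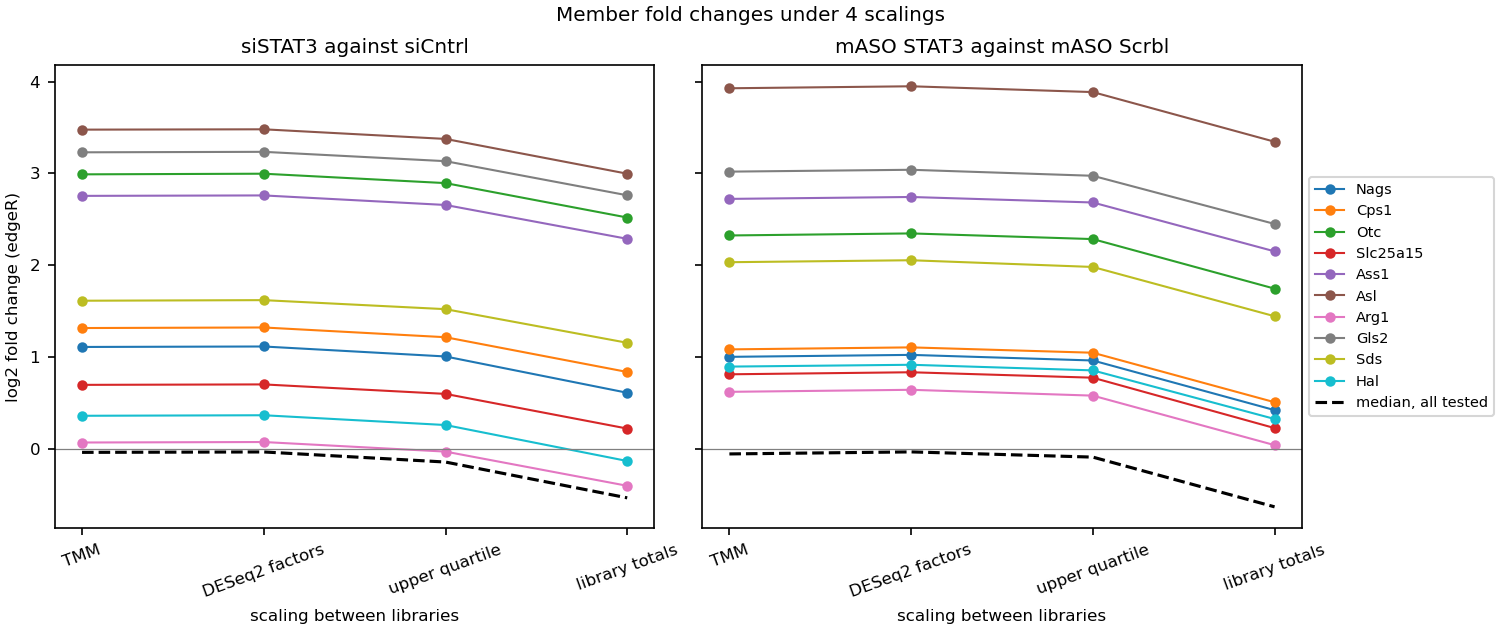
Log2 fold change of each gene in both arms under 4 scalings, with the median of all 15720 tested genes as a dashed line. Library totals lower every line together, and Arg1 and Hal pass below 0 in the siRNA arm at −0.40 and −0.13.

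Sequence upstream of the start was available for 5 of the 10 genes in RefSeq (GRCm38.p6). The build behind the counts was not stated, so the windows serve as reference only. Of these, 4 are shown because their genes cover the range of change, from Otc and Ass1 with large fold changes to Hal with a small one. Each holds the 250 bases before the annotated start, read 5′ to 3′ on the gene's strand, and capitals mark C/EBP-type matches (TTNCNNAA, either strand).
Otc, chrX:10252055-10252304, + strand: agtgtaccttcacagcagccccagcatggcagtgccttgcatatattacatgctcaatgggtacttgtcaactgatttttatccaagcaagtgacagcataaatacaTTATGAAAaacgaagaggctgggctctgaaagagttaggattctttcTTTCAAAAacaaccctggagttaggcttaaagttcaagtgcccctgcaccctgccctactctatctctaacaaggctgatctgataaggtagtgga
Ass1, chr2:31470020-31470269, + strand: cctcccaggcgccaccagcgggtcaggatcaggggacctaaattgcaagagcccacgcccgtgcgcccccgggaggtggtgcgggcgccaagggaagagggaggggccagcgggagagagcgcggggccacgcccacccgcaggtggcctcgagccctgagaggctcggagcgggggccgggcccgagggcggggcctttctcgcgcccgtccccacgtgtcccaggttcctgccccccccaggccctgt
Nags, chr11:102145263-102145512, + strand: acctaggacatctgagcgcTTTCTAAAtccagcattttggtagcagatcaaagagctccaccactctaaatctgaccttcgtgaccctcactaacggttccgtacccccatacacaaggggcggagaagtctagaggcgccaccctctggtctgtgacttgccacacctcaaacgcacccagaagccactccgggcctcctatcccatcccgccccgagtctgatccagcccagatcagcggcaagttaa
Hal, chr10:93488518-93488767, + strand: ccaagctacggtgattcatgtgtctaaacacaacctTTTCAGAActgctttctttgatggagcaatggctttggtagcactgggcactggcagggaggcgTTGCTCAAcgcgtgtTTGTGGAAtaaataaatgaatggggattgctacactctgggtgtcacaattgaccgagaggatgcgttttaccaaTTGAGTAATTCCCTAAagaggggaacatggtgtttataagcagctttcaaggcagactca
Otc held 2 such matches, Nags 1, Hal 5 (a pair of them adjoining), and Ass1 and Slc25a15 had 0. Of 32851 promoter windows of this length, 36.8% held at least 1. No window of the 5 genes held the STAT-type motif TTCNNNGAA, present in 7.02% of all windows, or the CRE core TGACG, present in 17.8%, on either strand. A match is a description of the letters and not a binding site.

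Entry of nitrogen into the cycle takes place in mitochondria. N-acetylglutamate synthase (Nags) makes the obligate activator of carbamoyl phosphate synthetase 1 (Cps1), which condenses ammonia with bicarbonate. Cps1 was at 1916, 1220.5 and 1658 CPM in siCntrl 1 to 3 and at 4483, 2732 and 4728 CPM in siSTAT3. In the antisense arm it was at 2215, 1699 and 1561 CPM in mASO Scrbl and at 3263, 4032 and 4315 CPM in mASO STAT3. The groups did not overlap in either arm, and siSTAT3 2 came closest to the controls. Cps1 rose 2.49-fold in the siRNA arm (log2 1.32 ± 0.24 SE, edgeR adjusted p = 0.000511) and 2.12-fold in the antisense arm (1.08 ± 0.24, adjusted p = 0.00211). With library totals the antisense value was 0.51 (edgeR adjusted p = 0.0601).

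Nags was the least abundant of the 10 genes per length in each group. Its levels were 63.1, 58.4 and 47.3 CPM in siCntrl against 118, 139.9 and 107 CPM in siSTAT3. They were 71.1, 44.6 and 53.4 CPM in mASO Scrbl against 125, 103 and 111 CPM in mASO STAT3. Both arms were free of overlap. Nags rose 2.16-fold (log2 1.11 ± 0.18, edgeR adjusted p = 0.000198) and 2.0-fold (1.0 ± 0.18, adjusted p = 0.00045).

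Otc joins carbamoyl phosphate to ornithine to give citrulline. It stood at 119, 55.3 and 101 CPM in siCntrl and at 760.3, 561 and 860.2 CPM in siSTAT3. In mASO Scrbl it was at 158, 123 and 126 CPM, and in mASO STAT3 at 559, 667 and 815 CPM. The lowest library labelled STAT3 lay far above the highest control in both arms. Otc rose 7.95-fold in the siRNA arm (log2 2.99 ± 0.27, edgeR adjusted p = 1.98e-06) and 5.01-fold in the antisense arm (2.32 ± 0.26, adjusted p = 1.28e-05).

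The ornithine carrier Slc25a15 exchanges cytosolic ornithine for mitochondrial citrulline and so links both compartments of the cycle. Its levels were 257, 152 and 299 CPM in siCntrl and 358, 407 and 383 CPM in siSTAT3. They were 349, 232 and 193 CPM in mASO Scrbl and 489, 374 and 498 CPM in mASO STAT3. The groups did not overlap, with narrow gaps in both arms. Slc25a15 rose 1.62-fold (log2 0.70 ± 0.25, edgeR adjusted p = 0.0329) and 1.76-fold (0.81 ± 0.25, adjusted p = 0.0164). Both calls depended on single libraries. Without siCntrl 2 the siRNA value was 0.46 (edgeR adjusted p = 0.122), and leaving out any other library of that arm except siCntrl 3 also ended the call, with values between 0.65 and 0.76. In the antisense arm leaving out 1 library ended the call in 4 of 6 cases, with values between 0.64 and 0.75. Library totals ended both calls (0.22 and 0.23).

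In the cytosol, Ass1 condenses citrulline with aspartate, which brings in the other nitrogen atom of urea. It was at 505, 274 and 656 CPM in siCntrl and at 3693, 2481 and 3517 CPM in siSTAT3. It was at 721, 413 and 489.9 CPM in mASO Scrbl and at 3172, 3863 and 3685 CPM in mASO STAT3. The groups were widely apart. Ass1 rose 6.75-fold (log2 2.76 ± 0.30, edgeR adjusted p = 1.11e-05) and 6.60-fold (2.72 ± 0.30, adjusted p = 1.18e-05). A processed pseudogene in the table, Gm5424, holds 55.3% of the 50-base words of the Ass1 transcript in GENCODE M21, so the level of Ass1 is uncertain to the extent that reads were divided between them. Gm5424 carried between 420 and 3987 counts per library and had log2 fold changes of 2.69 ± 0.36 and 2.56 ± 0.36 (chosen after its values were seen).

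Asl splits argininosuccinate into arginine and fumarate. It was at 87.8, 63.5 and 126 CPM in siCntrl and at 925, 1177 and 989.8 CPM in siSTAT3. In mASO Scrbl it was at 93.0, 62.2 and 80.4 CPM, and in mASO STAT3 at 1296, 1057 and 1231 CPM. Every control library lay far below the lowest library labelled STAT3. Asl had the highest fold change of the 10 genes in both arms. It rose 11.1-fold under siSTAT3 (95% interval 7.73 to 16.0, edgeR adjusted p = 2.17e-07) and 15.2-fold under mASO STAT3 (10.5 to 22.1, adjusted p = 9.43e-08).

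Arg1 cleaves arginine into urea and ornithine and closes the cycle. Its levels were 2172, 1245 and 2499.7 CPM in siCntrl and 2306, 1620.0 and 2287 CPM in siSTAT3. They were 1692, 1176 and 1345 CPM in mASO Scrbl and 1868, 2031 and 2584 CPM in mASO STAT3. The groups overlapped in the siRNA arm and were apart in the antisense arm. For siSTAT3 the log2 fold change came to 0.07 (95% interval −0.46 to 0.60, edgeR adjusted p = 0.836), and its sign turned to −0.40 with library totals, −0.029 with upper quartile factors and −0.18 without siCntrl 2. In the antisense arm it was 0.62 (0.09 to 1.15, edgeR adjusted p = 0.0556), and other settings on both sides of the threshold are given in the closing section. The interval of the siRNA arm leaves room for a fold change of up to 1.52.

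Levels can be set between genes only per length. In CPM per kilobase of the GENCODE M21 transcript, Arg1 led in both controls, with 1335 ± 441 in siCntrl and 951 ± 178 in mASO Scrbl (SD, n = 3). Cps1 followed at 288 ± 63.3 and 329 ± 62.0, and its range overlapped that of Ass1 at 282 ± 113 and 319 ± 94.5. Asl stood among the 3 lowest in the controls, at 38.4 ± 13.1 and 32.5 ± 6.40. In the libraries labelled STAT3 the order was Ass1, Arg1, Cps1 and Asl. Ass1 was at 1905 ± 386 and 2107 ± 212, Arg1 at 1402 ± 264 and 1463 ± 254, and their ranges overlapped in siSTAT3 but not in mASO STAT3. Cps1 was at 717 ± 196 and 697 ± 98.0 and Asl at 427 ± 54.2 and 495 ± 51.2 CPM per kilobase, each apart from its neighbour. Nags was last in every group, between 27.7 and 59.9 CPM per kilobase, and in both controls its range overlapped that of the gene above it.

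Nitrogen also reaches the cycle from amino acids broken down in periportal hepatocytes. Gls2, the liver form of glutaminase, releases ammonia from glutamine next to Cps1. It was at 93.5, 43.5 and 116 CPM in siCntrl and at 733, 777 and 868 CPM in siSTAT3. It was at 119, 51.7 and 96.2 CPM in mASO Scrbl and at 612, 786 and 767 CPM in mASO STAT3. All libraries labelled STAT3 were above all controls by a wide gap. Gls2 rose 9.38-fold (log2 3.23 ± 0.36, edgeR adjusted p = 1.52e-05) and 8.11-fold (3.02 ± 0.35, adjusted p = 2.42e-05).

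Serine dehydratase (Sds) turns serine into pyruvate and ammonia and is known as a fasting- and glucagon-responsive liver gene. It was at 168, 51.2 and 185 CPM in siCntrl and at 419.8, 397 and 420.2 CPM in siSTAT3. In mASO Scrbl it was at 126, 36.3 and 84.0 CPM, and in mASO STAT3 at 365, 235 and 409 CPM. The groups did not overlap, and the spread among controls was the widest of the 10 genes in each arm, with a coefficient of variation of 54.1% in siCntrl and 54.7% in mASO Scrbl. Sds rose 3.06-fold (log2 1.61 ± 0.49, edgeR adjusted p = 0.0192) and 4.09-fold (2.03 ± 0.50, adjusted p = 0.00652). The siRNA call ended without siSTAT3 2 (1.64, edgeR adjusted p = 0.0515) and with no filter on low counts (1.58, adjusted p = 0.0702).

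Histidine ammonia lyase (Hal) starts histidine breakdown. Its levels were 381, 293 and 282 CPM in siCntrl and 367, 445 and 417 CPM in siSTAT3. They were 389, 145 and 200.5 CPM in mASO Scrbl and 435, 478 and 456 CPM in mASO STAT3. The siRNA groups overlapped and the antisense groups did not. For siSTAT3 it had a log2 fold change of 0.36 (95% interval −0.23 to 0.95, edgeR adjusted p = 0.30), with −0.13 under library totals. Hal rose 1.86-fold in the antisense arm (log2 0.90 ± 0.27, edgeR adjusted p = 0.0173), but the call ended without mASO Scrbl 2 (0.63, adjusted p = 0.0560), without mASO Scrbl 3 (0.77, adjusted p = 0.0681) and with library totals (0.33, adjusted p = 0.303).

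**Figure D3:**
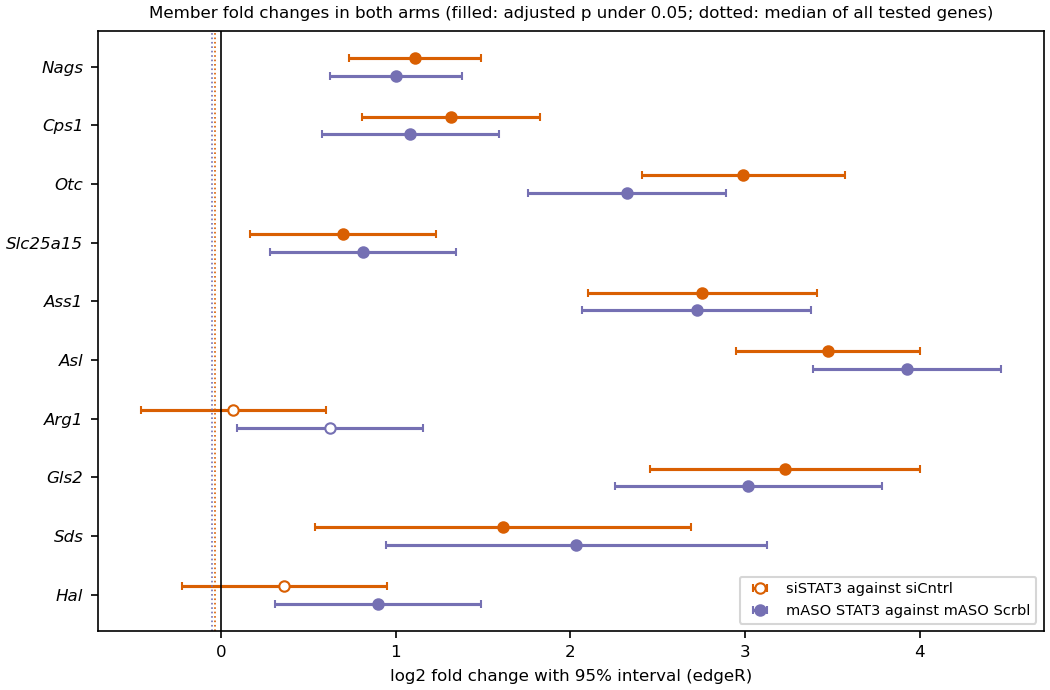
Log2 fold change of each gene with its 95% interval in both arms (edgeR); filled points passed an adjusted p under 0.05, and dotted lines mark the median of all tested genes near 0. Asl is farthest right in both arms, and the open points are Arg1 in both arms and Hal in the siRNA arm.

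Reads of genes that overlap on the opposite strand could be mixed if counting ignored strand, and the counting was not stated. Sds shares up to 360 exon bases with Plbd2, which rose (log2 1.03 ± 0.12 and 0.79 ± 0.12), and 92 with Gm15690. Nags shares 443 with Gm11586, which stood at or below 0.472 CPM, and Gls2 shares 97 with Spryd4, at log2 fold changes of 0.29 ± 0.14 and 0.32 ± 0.14 that did not pass. These neighbours were looked up after the values of the 10 genes were known.

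The arms were also tested against each other. For the difference of the arms (antisense minus siRNA), 0 of the 10 genes passed in edgeR, 0 had an unadjusted p under 0.05, and 0 passed with DESeq2's Wald test or limma voom. Over all tested genes 0.00636% passed in edgeR, while DESeq2's Wald test called 45 higher and 17 lower, and limma voom 2 and 0. Intervals were wide. Otc had a difference of −0.67 on the log2 scale (95% interval −1.43 to 0.097) and Arg1 0.55 (−0.20 to 1.30), and over the 10 genes the interval bounds reached −1.43 and 1.91. A p that misses the threshold does not show that the arms act alike.

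Both controls were compared in the same way. Between mASO Scrbl and siCntrl 0 of the 10 genes passed in edgeR, DESeq2 or voom. Of all tested genes 0.0127% passed in edgeR, while DESeq2's Wald test called 24 higher and 55 lower, and voom 0 and 2. Among the 10 genes, Otc was the 1 gene under 0.05 before adjustment in edgeR. Its log2 difference was 0.57 (95% interval 0.028 to 1.11, edgeR adjusted p = 0.62), and it was the 1 gene whose groups did not overlap, where 6.75% of tested genes were free of overlap and higher and 5.67% lower. Between mASO STAT3 and siSTAT3 0 of 10 passed in edgeR, where 0% of tested genes passed, and 0 had an unadjusted p under 0.05. DESeq2's Wald test called 59 of all tested genes higher and 20 lower there. Of the 10 genes 0 were free of overlap, against 6.04% higher and 5.14% lower over all tested genes. Spread was wider among controls, where the median coefficient of variation of the 10 genes was 33.6% in siCntrl and 26.8% in mASO Scrbl, than in siSTAT3 at 13.2% and mASO STAT3 at 13.6%.

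In bulk liver, fewer cells of a type and less RNA per cell cannot be told apart, and cell type markers moved with the labels. Over all tested genes 22.4% rose and 23.4% fell in the siRNA arm, and 21.3% rose and 22.5% fell in the antisense arm. Of 10 hepatocyte markers, 7 rose in the siRNA arm and 9 in the antisense arm, with 0 lower and medians of 0.94 and 1.37. Their summed level ran from 65226 to 108935 CPM for siCntrl and from 159585 to 173501 CPM for siSTAT3. For mASO Scrbl it ran from 67499.7 to 100997 CPM, and for mASO STAT3 from 142266 to 191963 CPM. Of 8 stellate cell and myofibroblast markers 6 fell in each arm, and 1 and 2 rose. Summed levels were 935 to 1211 CPM for siCntrl and 182 to 220.0 CPM for siSTAT3. For mASO Scrbl they were 666 to 1494 CPM, and for mASO STAT3 211 to 267 CPM. Of 10 macrophage and monocyte markers 6 and 4 fell (0 and 1 rose), and of 5 tested cholangiocyte markers 4 and 3 fell. Neutrophil markers fell in 4 and 5 of 6 cases and sinusoidal endothelial markers in 4 and 3 of 7 (0 and 1 rose). Of 6 lymphoid markers 1 and 2 rose and 1 and 0 fell, and of 4 red blood cell markers 0 passed in either direction. The lymphoid counts were not far from the shares of all tested genes. No marker of these lists was at 0 counts over a whole group. The part of cell composition in the levels of the 10 genes was not tested.

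Ratios inside a library need no scaling. Against the mean log2 level of the 10 hepatocyte markers of the same library, Asl was higher by 2.46 in the siRNA arm and 2.63 in the antisense arm on the log2 scale. Gls2 was higher by 2.28 and 1.78, Otc by 1.97 and 1.0, and Ass1 by 1.76 and 1.44. In none of these 8 comparisons did the libraries overlap. Asl, Gls2, Otc and Ass1 were also the genes with the highest fold changes. The share of all tested genes without overlap in such a ratio was not computed. Arg1 was lower relative to the same markers, by −0.95 and −0.69, again without overlap, and Hal by −0.70 in the siRNA arm. Of these 10 markers, 7 and 9 themselves rose, with median log2 fold changes of 0.94 and 1.37. Single markers ran from 0.030 to 2.71 in the siRNA arm and from 0.39 to 2.55 in the antisense arm. A gene below their mean is thus not below each of them. Neither Arg1 nor Hal was called lower by itself. In the antisense arm Hal stood at −0.29 with overlapping libraries. Cps1, Nags, Slc25a15 and Sds overlapped in both arms. With 3 libraries against 3 an exact permutation test cannot go below p = 0.1, which each comparison without overlap reached (two-sided, adjusted p = 0.147 over 28 ratios).

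Arginase 2 (Arg2), the mitochondrial form found in many tissues, fell by 2.55 ± 0.40 and 2.84 ± 0.40 on the log2 scale (SE, edgeR adjusted p = 0.000167 and 7.22e-05). The Arg1 to Arg2 ratio of counts went from 473 in siCntrl to 2819 in siSTAT3 and from 330 in mASO Scrbl to 3463 in mASO STAT3 (geometric means over 3 libraries), although Arg1 itself did not pass. Within the cycle, the Ass1 to Cps1 ratio went from 0.286 to 0.822 and from 0.292 to 0.927. The Asl to Arg1 ratio, added after the data were seen, went from 0.0471 to 0.502 and from 0.0558 to 0.556. No ratio of these 3 pairs overlapped between the groups of an arm (exact two-sided permutation p = 0.1 each, the smallest possible).

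**Figure D4:**
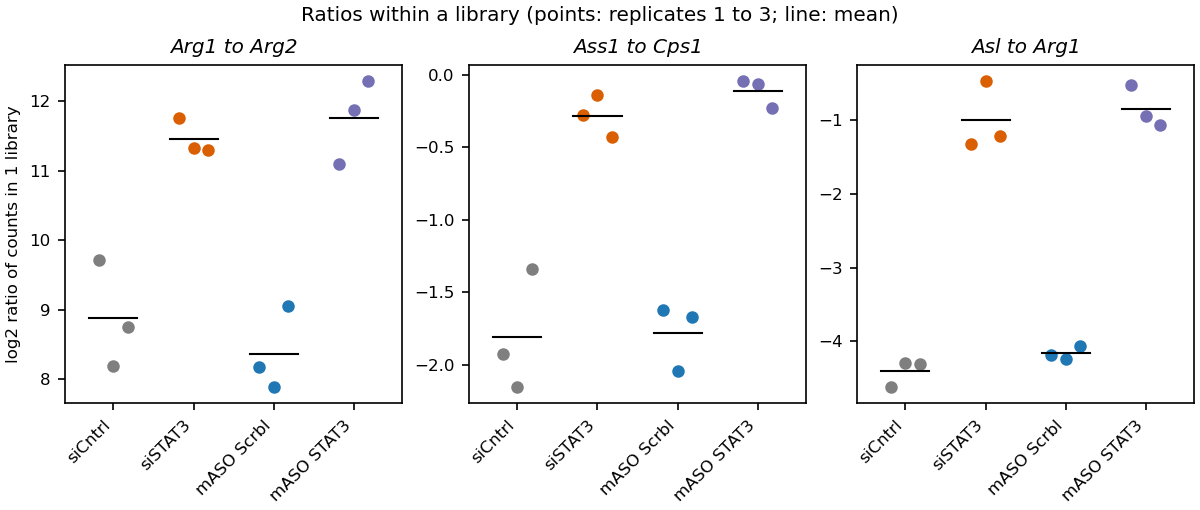
Log2 ratio of counts of 3 gene pairs within each library, with points for replicates 1 to 3 and a line for the group mean. In each pair the libraries labelled STAT3 lie above both control groups without overlap. Asl to Arg1 was picked after the data were seen, as the highest over the lowest fold change, and its gap is a description only.

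Arg2 belongs to a list of isozymes and arginine users outside the hepatic cycle. Of its 7 tested genes 5 fell and 1 rose in the siRNA arm, and 4 fell and 0 rose in the antisense arm. Medians were −0.80 and −0.83. Beside these counts, 23.4% and 22.5% of all tested genes fell and 22.4% and 21.3% rose. Cad, which makes carbamoyl phosphate for pyrimidine synthesis, fell by 1.02 ± 0.28 and 1.08 ± 0.27 (log2 ± SE). Odc1, the ornithine decarboxylase of polyamine synthesis, fell by 0.79 ± 0.24 and 0.83 ± 0.24. Gatm, of creatine synthesis, fell by 0.80 ± 0.28 in the siRNA arm and stood at −0.22 ± 0.28 in the antisense arm, where it did not pass. Azin1 rose by 0.71 ± 0.22 in the siRNA arm and stood at 0.33 ± 0.22 in the antisense arm. In the test of the difference of the arms, 0 of the 7 genes passed in edgeR, and 0 had an unadjusted p under 0.05. Gatm and Azin1 were named after their values were seen.

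A list of nitrogen supply and shuttle genes held enzymes and carriers that provide, move or capture ammonia, bicarbonate, aspartate and glutamine. Of 18 tested genes 14 rose and 1 fell in the siRNA arm, and 12 rose and 1 fell in the antisense arm. Medians were 1.38 and 1.70. Among all tested genes 22.4% and 21.3% rose, and 23.4% and 22.5% fell. Car5a, the mitochondrial carbonic anhydrase that supplies Cps1 with bicarbonate, was at 1.59, 0.905 and 0.632 CPM in siCntrl and 25.9, 11.7 and 26.7 CPM in siSTAT3, and rose by 4.36 ± 0.52 and 4.41 ± 0.52. The glutamine carrier Slc38a3 rose by 3.03 ± 0.23 and 2.98 ± 0.23, and the neutral amino acid carrier Slc38a4 by 2.08 ± 0.17 and 1.89 ± 0.17. Gpt, the cytosolic alanine aminotransferase, rose by 2.87 ± 0.27 and 2.60 ± 0.27. The aspartate-glutamate carrier Slc25a13 rose by 0.72 ± 0.17 and 1.05 ± 0.17, whereas its relative Slc25a12 stood at −0.25 ± 0.15 and −0.35 ± 0.15 and did not pass. Glutamate dehydrogenase (Glud1), which can release or fix ammonia, was the gene that fell in both arms, by 0.63 ± 0.16 and 0.59 ± 0.16. Car5a, Gpt, Slc25a13, Slc25a12 and Glud1 were named after their values were seen.

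Enzymes that break down other amino acids formed a further list. Of 16 tested genes 13 rose in the siRNA arm and 12 in the antisense arm, 0 fell, and the medians were 1.72 and 1.78. The shares of all tested genes were 22.4% and 21.3% for a rise, and 23.4% and 22.5% for a fall. Prodh, the first enzyme of proline oxidation, was at 13.8, 21.0 and 19.5 CPM in siCntrl and 349, 406 and 273 CPM in siSTAT3, and rose by 4.25 ± 0.22 and 4.34 ± 0.22 on the log2 scale. Aldh4a1, the next enzyme of that route, rose by 2.98 ± 0.23 and 3.39 ± 0.24. Agxt, which detoxifies glyoxylate, rose by 3.43 ± 0.32 and 3.21 ± 0.31, and Agxt2 by 1.85 ± 0.20 and 2.17 ± 0.21. The enzymes downstream of Hal in histidine breakdown, Uroc1, Amdhd1 and Ftcd, rose by 1.83 ± 0.20, 1.80 ± 0.21 and 0.90 ± 0.17 in the siRNA arm, where Hal itself did not pass, and by 1.85 ± 0.20, 2.02 ± 0.21 and 1.30 ± 0.17 in the antisense arm (picked after their values were seen).

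Zone markers were followed as well. All 10 listed pericentral markers rose in both arms, with medians of 3.08 and 4.27. Glul, which makes glutamine from ammonia around the central vein, was at 51.7, 124 and 70.2 CPM in siCntrl and 673, 497 and 587 CPM in siSTAT3, and at 51.0, 56.5 and 55.9 CPM in mASO Scrbl and 678, 927 and 643 CPM in mASO STAT3. It rose by 2.84 ± 0.27 and 3.78 ± 0.29 on the log2 scale. The ammonium channel Rhbg rose by 3.32 ± 0.21 and 3.77 ± 0.21, and the glutamate carrier Slc1a2 by 7.56 ± 0.27 and 8.61 ± 0.28, from means under 0.5 CPM in the controls. Cyp2e1, a cytochrome P450 of the central zone, rose by 6.77 ± 0.34 and 7.19 ± 0.35. Of 10 periportal zone markers outside the cycle, 4 rose and 3 fell in the siRNA arm. In the antisense arm 7 rose and 2 fell, and the medians were 0.63 and 1.10. The periportal markers that fell were near the shares of all tested genes that fell, 23.4% and 22.5%. Shares of all tested genes that rose were 22.4% and 21.3%. Cyp2f2 rose by 3.67 ± 0.34 and 1.95 ± 0.31 and Pigr by 1.89 ± 0.17 and 1.66 ± 0.17, while E-cadherin (Cdh1) fell by 2.33 ± 0.21 and 2.26 ± 0.21. Sox9, which also marks bile duct cells, fell by 1.65 ± 0.26 and 1.82 ± 0.26. Glul, Rhbg, Slc1a2 and Oat stand in both the supply list and the pericentral list.

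Known regulators of the cycle rose or did not pass. Of 12, 8 rose in each arm and 0 fell, with medians of 0.65 and 0.74. For all tested genes the shares were 22.4% and 21.3% higher, and 23.4% and 22.5% lower. C/EBP alpha (Cebpa), without which urea cycle genes are known to fail in liver, was at 168, 106 and 186 CPM in siCntrl and 562, 534 and 519 CPM in siSTAT3, and at 156, 105 and 113 CPM in mASO Scrbl and 412, 459 and 489 CPM in mASO STAT3. It rose by 1.81 ± 0.20 and 1.86 ± 0.20. The glucagon receptor (Gcgr) rose by 2.04 ± 0.21 and 1.99 ± 0.21, the bile acid receptor Nr1h4 by 1.01 ± 0.16 and 1.09 ± 0.16, and the mitochondrial deacetylase Sirt3 by 2.15 ± 0.17 and 2.18 ± 0.17. Sirt5, which acts on Cps1 protein, rose by 0.75 ± 0.14 and 0.66 ± 0.14. Hnf4a, a master factor of hepatocyte genes, stood at 0.27 ± 0.20 and 0.22 ± 0.20 and did not pass. Sirt5 and Hnf4a were named after their values were seen.

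**Figure D5:**
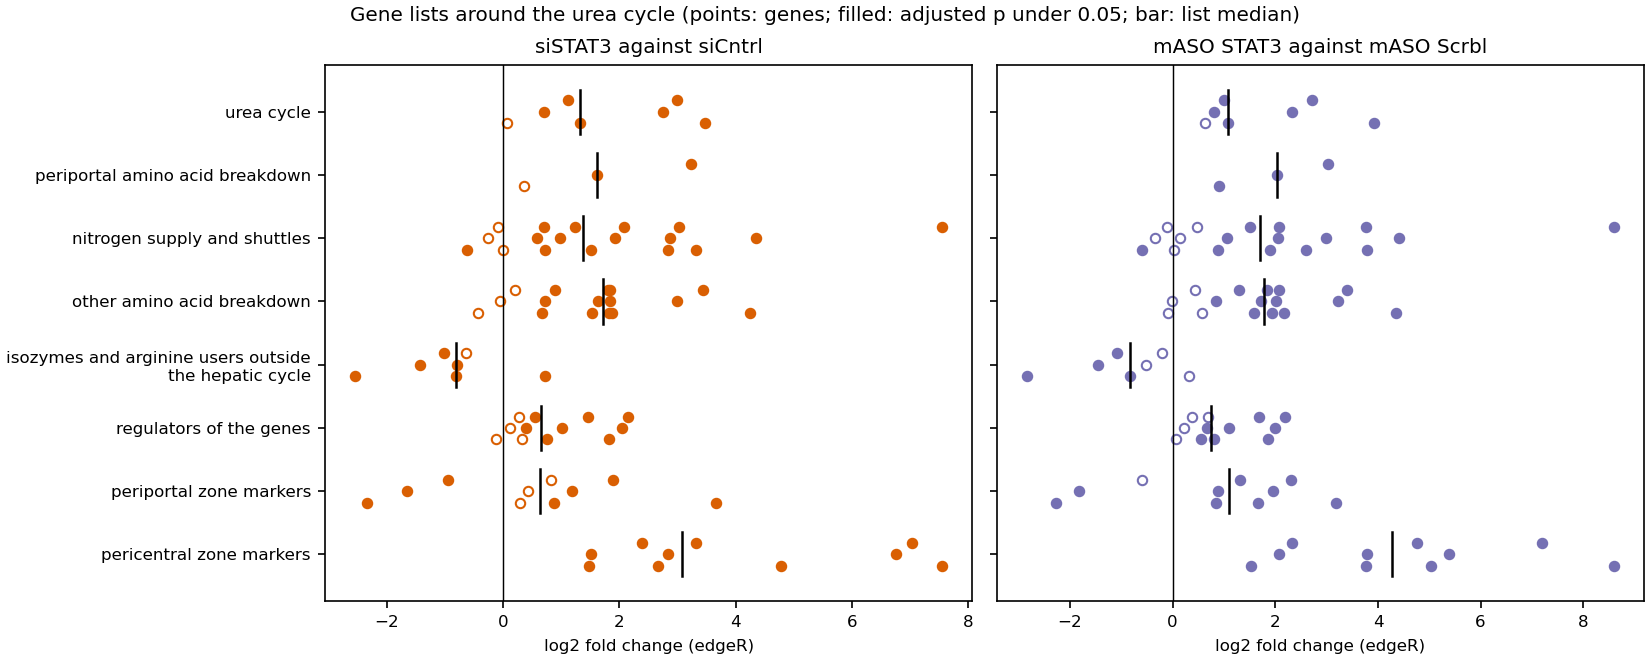
Log2 fold change of every tested gene of 8 lists in the siRNA arm and in the antisense arm (edgeR), with filled points past an adjusted p under 0.05 and a bar at the list median. The median of the isozyme list lies below 0 in both arms, and the point farthest right, Slc1a2, stands in both the supply list and the pericentral list.

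Across the 12 libraries, the profile of each gene was compared with that of 12413 tested genes with a mean of at least 1 CPM, by Pearson's r of log2 CPM. The values are descriptive, since all points share the same groups and scaling. Asl was closest to Pecr (0.997), Gls2 to Aldh5a1 (0.993), Ass1 to Homer2 (0.993) and Otc to Mccc1 (0.992). Cps1 was closest to Gm5424 (0.987), Nags to 1600014C10Rik (0.982), Sds to Serpina1b (0.970) and Hal to Steap3 (0.960). Slc25a15 reached 0.942 with Fh1. The closest profile of Arg1, Ppp6r2, reached 0.869, the lowest such value among these genes. Arg1 also had the smallest fold change in each arm, and r over these libraries depends largely on the step between labelled groups.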

How the data were processed

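Liver RNA of 12 samples was sequenced with a stranded mRNA kit, per the labels' protocols. Raw counts for each gene symbol, as the authors deposited them, were analysed. Their second table holds a normalized signal, by its values the deposited count divided by 1 factor per library, and served no other purpose. Per the submitters' processing notes, TopHat and Cufflinks were used, with no version stated. Build, annotation and counting were not given in the sources read.

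One model with 4 group means was fitted to the 12 libraries in edgeR (version 4.0.16, under R 4.3.3), after TMM scaling and filterByExpr (minimum count 10, minimum total 15), which kept 15720 of 25540 symbols. Tests were robust quasi-likelihood F tests, with 8 residual degrees of freedom. The biological coefficient of variation was 0.247. Calls use Benjamini-Hochberg adjusted p under 0.05 over all tested genes. Ratios use counts plus 0.5. The genes and lists were chosen with earlier results of these data known. Besides the 10 genes, up to 4 genes per list and arm with the smallest p were to be named, and any others are marked in the text. Of the listed symbols, 3 were matched through RefSeq synonyms, Azin2 was not matched, and Nos2, Slc25a2, Tdh and Cftr were not tested. Promoters were searched over the 250 bases before the start, without the 50 bases after it. Alternatives were DESeq2 (1.42.0) size factors and Wald test, limma voom (3.58.1), upper quartile factors, library totals, other filters, a replicate block, a fit of only the libraries compared, and omission of single libraries. Simulated counts were used to test the procedure. Replicate numbers were not taken as pairs, since residual correlations of same-numbered libraries ran from −0.189 to 0.175. A result on 1 gene of the lists is not reported here.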

Additional observations from a re-analysis of the deposited data

How the results depend on the processing

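The number of the 10 genes called higher stayed between 6 and 8 in the siRNA arm and between 6 and 10 in the antisense arm under all alternatives run, with 0 called lower. Calls over all tested genes moved more. Of 15720 genes, library totals called 1655 (siRNA arm) and 1525 (antisense arm) higher, and 7266 and 7939 lower. DESeq2's Wald test called 3745 and 3685 higher, and 3906 and 3701 lower. Arg1 in the antisense arm crossed to the called side with DESeq2 size factors (0.64, adjusted p = 0.0497), DESeq2's Wald test (adjusted p = 0.0251), the compared libraries alone (edgeR adjusted p = 0.0182) and without mASO Scrbl 1 (0.78, edgeR adjusted p = 0.0426). Hal in the antisense arm lost its call with the compared libraries alone (0.89, edgeR adjusted p = 0.0654, beside 0.90 in the fit of all libraries), and Slc25a15 in the siRNA arm with upper quartile factors (0.60, edgeR adjusted p = 0.0540).

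The sign of Arg1 in the siRNA arm turned with library totals (−0.40), upper quartile factors (−0.029), both control libraries numbered 2 left out (−0.18) and single libraries left out (from −0.18 to 0.28), and that of Hal with library totals (−0.13). Values near 0 changed sign elsewhere, none of them called. Nags between controls became −0.016 with DESeq2 size factors and its Wald test, −0.015 with limma voom and the compared libraries alone, −0.0088 with the stricter filter and −0.039 with upper quartile factors. Ass1 in the difference of the arms became 0.027 with upper quartile factors and 0.08 without both control libraries numbered 2, which also turned Slc25a15 between controls to −0.035.

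With libraries left out, the difference of the arms ran from −0.28 to 0.093 for Nags, −0.073 to 0.39 for Slc25a15, −0.32 to 0.25 for Ass1 and −0.50 to 0.10 for Gls2. Between controls it ran from −0.20 to 0.17 for Nags, −0.15 to 0.32 for Slc25a15, −0.10 to 0.46 for Ass1, −0.45 to 0.039 for Asl and −0.24 to 0.37 for Gls2. Between the groups labelled STAT3 it ran from −0.19 to 0.0060 for Nags, −0.25 to 0.10 for Cps1, −0.25 to 0.042 for Otc, −0.014 to 0.25 for Ass1 and −0.089 to 0.16 for Arg1.

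Against the median rather than the mean of the hepatocyte markers, Nags stood at −0.27 and −0.50, Asl at 2.15 and 2.42, and, in the siRNA arm, Slc25a15 at −0.63 and Hal at −1.01. Cps1 turned from 0.23 to −0.080 in the siRNA arm. The denominator is shared, so all 10 genes of an arm shifted by the same amount. With the replicate block, a term for the replicate number, Arg1 in the antisense arm passed (0.63, edgeR adjusted p = 0.0225), Nags between controls was −0.0035 and Cps1 between the groups labelled STAT3 was 0.0018. The block changed no other call of these genes. Depth does not limit these genes, which had at least 3001 counts in each library.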
